A study of Mus musculus with 24 samples.

Results

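The transcripts described here are those of 7 enzymes that make cholesterol (Hmgcs1, Idi1, Fdps, Fdft1, Sqle, Lss and Cyp51) and of Insig1, which restrains that pathway. They were taken by gene symbol, 8 genes of 56895 entries with a unique name, and all 8 were present in each of the 8 deposited tables and passed the filter on low values. RNA-seq of polyadenylated transcripts was performed on retroperitoneal white adipose tissue, a fat depot at the back of the abdomen, from 24 C57BL/6J mice after an overnight fast. There were 8 groups of 3 mice, 1 for each combination of maternal diet, offspring diet and sex. CTRL mothers ate 1.0 IU of vitamin D3 per g of diet, and VDD (vitamin D deficient) mothers ate 0.0 IU per g, before mating and during gestation. All mothers received the control diet after birth. From 6 weeks of age the offspring ate a low-fat (LF) or a high-fat (HF, 45% of energy from fat) diet for 8 weeks, so that all were 14 weeks old. The maternal diets thus differed only until birth. No source used here gives the litter of each mouse, so p-values measure the spread between these mice, some of which may be littermates.

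Cholesterol is built from acetyl units through mevalonate, isoprenoid and squalene intermediates. The genes of the pathway are switched on together by the transcription factor SREBP-2, which is held in the endoplasmic reticulum by SCAP and the INSIG proteins while sterols are plentiful and is released and cut when they run low. Insig1 is itself a target of the SREBP factors, so that its transcript is commonly read as a part of the same programme. Adipose tissue stores a large share of the body's free cholesterol and takes much of it up from the circulation, and its adipocytes also use SREBP-1 to control the synthesis of fatty acids.

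The windows before the start sites of 3 genes are shown. They represent the earliest of the enzymes described here, the late enzyme whose level differed most between diets, and the regulator. Sequences are RefSeq's for GRCm38.p6, an mm10 assembly, read 5′ to 3′ on the strand of the gene and ending before the first annotated base. Capitals mark matches, on either strand, to TCACCNCA or TCACNCCAC (forms of the sterol regulatory element, which can overlap each other), to CCAAT (read as ATTGG on the other strand; the box of the factor NF-Y) or to CACGTG (an E-box).
Hmgcs1, chr13:119690101-119690350, plus strand: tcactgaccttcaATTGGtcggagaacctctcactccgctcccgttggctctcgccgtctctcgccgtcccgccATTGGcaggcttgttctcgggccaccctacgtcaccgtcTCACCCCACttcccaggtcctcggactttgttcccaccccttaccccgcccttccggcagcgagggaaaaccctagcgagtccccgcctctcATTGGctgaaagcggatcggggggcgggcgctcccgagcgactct
Cyp51, chr5:4104747-4104947, minus strand: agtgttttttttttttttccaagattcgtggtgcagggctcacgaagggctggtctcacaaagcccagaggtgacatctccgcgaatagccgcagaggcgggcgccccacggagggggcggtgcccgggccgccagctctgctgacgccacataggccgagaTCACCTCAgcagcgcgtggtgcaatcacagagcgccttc
Insig1, chr5:28071162-28071362, plus strand: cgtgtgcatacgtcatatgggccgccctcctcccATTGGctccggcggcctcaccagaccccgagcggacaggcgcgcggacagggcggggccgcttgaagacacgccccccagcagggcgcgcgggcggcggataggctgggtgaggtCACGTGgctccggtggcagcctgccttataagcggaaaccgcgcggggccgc

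The Hmgcs1 window held 1 overlapping pair of sterol element matches and 3 CCAAT boxes, the Cyp51 window 1 match to TCACCNCA, and the Insig1 window 1 CCAAT box and 1 CACGTG. The motifs were chosen with these windows in view. Among 32851 RefSeq promoters, TCACCNCA occurred in 3.61% of windows of 250 bases and in 2.88% of windows of 201 bases, and TCACNCCAC in 1.05% and 0.82%. CCAAT occurred in 33.85% and 28.59%, and CACGTG in 6.02% and 4.36%. Entries were present for 5 of the 8 genes. The window of Lss (233 bases) held 1 CCAAT box, and that of Idi1 (145 bases) held none of the 4 motifs. These matches describe letters and not binding.

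Each library held 13346779 to 18484346 reads on genes (median 15933506). Levels are given as normalised reads after scaling the 24 libraries together, and differences between groups as log2 fold changes of the deposited values, log2(normalised reads + 1), second group over first. All 6 adipocyte markers (Adipoq, Plin1, Cidec, Pparg, Lpl and Fabp4) were present in every group, with summed levels of 366700 to 1006000 normalised reads. The 5 libraries with the highest sums of skeletal muscle, kidney or adrenal cortex markers were left out together as an alternative. The skeletal muscle list summed to 840600 in VDD LF male 2310 (next highest 298100, in VDD HF male 2307), and the kidney list to 5704 in VDD LF female 2303 against at most 18.26 in the others. The adrenal cortex list summed to 33200 and 10430 in CTRL HF females 2292 and 2290 and to 19230 in VDD HF female 2121. Elsewhere it was at most 2180. Cyp21a1, a defining gene of that tissue, was under 1 normalised read in the CTRL HF and VDD HF females. The ovary and uterus list was highest in 2292 (1123) and 2121 (421.4), followed by 326.6 in CTRL LF female 2124, and was 171.6 in 2290. Which tissue gave these transcripts was not tested. The muscle list was above 10000 in 9 libraries, 6 of which (32010 to 298100) are not among those 5, and 95.79 to 3008 in the other 15. Over all libraries the macrophage list summed to 1366 to 8845, brown adipocytes to 200.3 to 37040, mesothelium to 244.2 to 12900, lymphocytes to 120.0 to 1216, liver to 223.9 to 1070, mammary epithelium to 10.28 to 3932, and ovary and uterus to 0 to 1123. The names of 6 libraries, 1 in each group other than the HF females, hold the word renal, which no source used here explains. Results are therefore given with and without these 5 libraries where that alters a call. For the means over strata only, the same was done for the 6 and the 9 libraries.

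Per kb of exon length, Insig1 (740.4 normalised reads per kb, mean of 24 libraries) and Hmgcs1 (681.9) had the highest levels, followed by Fdft1 (355.2) and Cyp51 (118.6). Lss (32.5), Sqle (28.1), Idi1 (16.3) and Fdps (14.9) were far lower. A synthase early in the pathway and the regulator thus lay above the enzymes described here that follow. The order comes with a limit of counting, since the authors kept reads with a single position only. Of the 50-base stretches of the longest transcript, 30.5% in Idi1, 30.7% in Fdft1, 13.6% in Hmgcs1 and 11.7% in Fdps also occur in other annotated genes, against at most 3.2% in the other 4. Some of those genes overlap the member itself, namely Gm48342 on Hmgcs1 (557 exon bases), Gm43738 on Fdps (1124), Ctsb on Fdft1 (774) and Gm48574 on Idi1 (323). Stretches shared in that way need not have a second position in the genome, and how many reads were lost was not tested. The levels of Idi1 and Fdps, which rest on 22 to 103 and 27 to 153 reads per library, are uncertain.

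Hmgcs1 (chr13:119690379-119708260, plus strand), the synthase that makes HMG-CoA from acetyl units, ranged from 912.8 normalised reads in VDD HF female 2081 to 6240 in CTRL LF male 2287. Males had 1319 to 6240 (median 3737) and females 912.8 to 5791 (median 1994). CTRL LF males had the highest group mean (4905 ± 1558, SD, n = 3) and VDD LF females the lowest (1768 ± 126.4), and the ranges of every pair of neighbours in the order of the 8 groups overlapped. Idi1 (chr13:8885501-8892451, plus strand), the isomerase of the isoprenoid units, stayed within 28.37 to 106.4 normalised reads, with both extremes among the VDD HF females. Its group means lay between 45.28 ± 5.87 (VDD LF males) and 68.85 ± 39.09 (VDD HF females), also without a gap between neighbours.

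Fdps (chr3:89093588-89101959, minus strand) joins these units into farnesyl pyrophosphate. CTRL LF males had 26.45, 33.78 and 36.13 normalised reads, CTRL HF males 31.37, 39.07 and 57.31, VDD LF males 39.91, 42.42 and 44.72, and VDD HF males 41.67, 57.04 and 60.99. CTRL LF females had 56.88, 60.93 and 76.42, CTRL HF females 50.09, 68.99 and 115.3, VDD LF females 65.67, 85.90 and 116.9, and VDD HF females 55.44, 83.61 and 158.0. The 4 female groups thus held the 4 highest means, although the sexes overlapped between 50.09 and 60.99.

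Fdft1 (chr14:63145150-63179578, minus strand) encodes squalene synthase, the first enzyme committed to sterols. CTRL LF males had 722.4, 756.5 and 1330 normalised reads and VDD LF males 1357, 2209 and 2339, while CTRL HF males had 639.7, 659.7 and 746.1 and VDD HF males 785.6, 788.1 and 953.6. CTRL LF females had 932.3, 1507 and 2104 and VDD LF females 1619, 2717 and 3599, while CTRL HF females had 833.0, 1025 and 1136 and VDD HF females 1371, 1974 and 3930. In 3 of the 4 pairs of maternal groups every VDD mouse was above every CTRL mouse, and in LF females the 2 ranges overlapped. Of its 4227 exon bases, 774 overlap exons of Ctsb on the opposite strand, and whether reads were counted by strand is not stated. Ctsb, a lysosomal protease, had 17750 to 43570 normalised reads and its log2 level had a Pearson r of -0.512 with that of Fdft1 over the 24 libraries.

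Sqle (chr15:59315077-59331192, plus strand), squalene epoxidase, showed the widest range in proportion to its level, 9.47-fold, from 39.91 normalised reads in VDD LF male 2310 to 378.0 in VDD HF female 2121. Lss (chr10:76531588-76557138, plus strand), which folds the epoxide into lanosterol, had 181.1 to 644.4 and the narrowest range of the 8 in proportion to its level, 3.56-fold. VDD HF female 2121 was the highest library for Fdps, Idi1, Sqle and Lss. It also had the highest summed level of brown adipocyte markers and a high adrenal cortex sum, whose part in these levels was not tested.

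Cyp51 (chr5:4081145-4104746, minus strand) removes the methyl group at carbon 14 of lanosterol. LF mice had 293.7, 429.0 and 541.8 normalised reads in CTRL males, 358.0, 639.0 and 1503 in VDD males, 495.8, 525.3 and 779.3 in CTRL females and 479.7, 991.9 and 1389 in VDD females. HF mice had 223.2, 247.2 and 256.2 in CTRL males, 291.2, 307.3 and 332.1 in VDD males, 336.9, 398.2 and 446.9 in CTRL females and 349.4, 356.1 and 598.0 in VDD females. The 4 HF means were lower than the mean of the LF group of the same sex and maternal diet in every case. The SD was widest in the LF mice of VDD mothers, at 596.5 in males and 455.8 in females, against 17.08 to 155.9 in the other 6 groups.

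Insig1 (chr5:28071363-28078662, plus strand) encodes the protein that retains SCAP and its SREBP cargo. LF mice had 2159, 2745 and 3496 normalised reads in CTRL males, 1295, 3364 and 4504 in VDD males, 1856, 2148 and 2672 in CTRL females and 1154, 2652 and 5935 in VDD females. HF mice had 1330, 1377 and 1720 in CTRL males, 1570, 1706 and 2147 in VDD males, 975.0, 1187 and 1997 in CTRL females and 1601, 2422 and 2953 in VDD females. CTRL males separated completely by diet, and the VDD LF groups held both the highest mice and some of the lowest. The highest, VDD LF female 2303, was the library with kidney markers, and VDD LF male 2310, with 1295, was the library with most muscle markers and the lowest adipocyte sum among LF mice (411700).

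**Figure D1:**
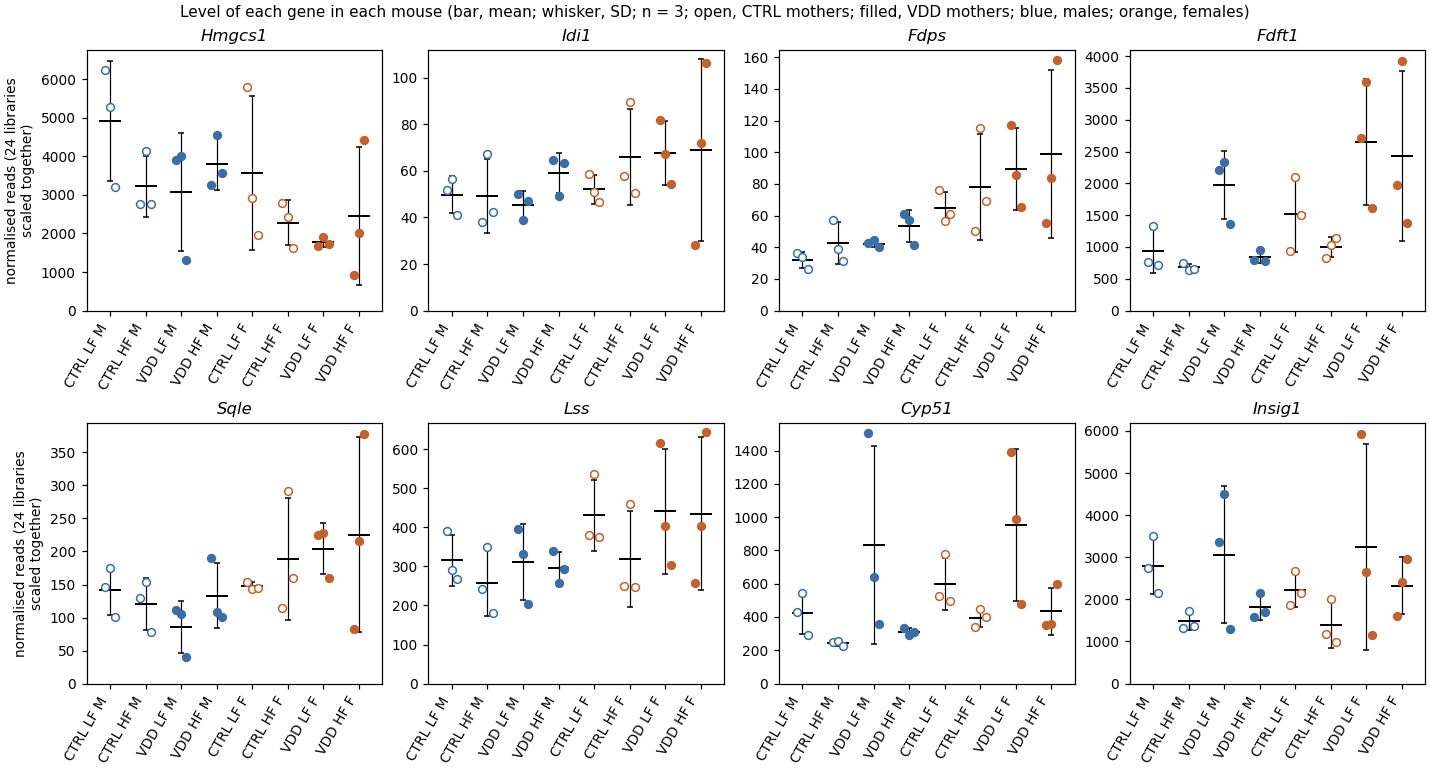
Normalised reads of the 8 genes (vertical axes from 0, 24 libraries scaled together) in each mouse, with group means (bars) and SD (whiskers), n = 3. Fdft1 lay higher in mice of VDD mothers (filled) in each pair of groups by its mean, and Cyp51 lower under HF in each pair.

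The genes varied together to different degrees. Over the 24 libraries, which were scaled together, the 28 pairs of log2 levels had Pearson r from -0.423 (Hmgcs1 and Fdft1) to 0.762 (Sqle and Lss), with a median of 0.374 and 3 negative pairs. After group means were subtracted the median was 0.566 and the range -0.072 to 0.843. Idi1, Fdps, Sqle and Lss had r within groups from 0.665 (Fdps and Idi1) to 0.843 (Sqle and Lss), and Lss, Cyp51 and Insig1 had r of 0.730 to 0.756 with each other. Fdft1 had the lowest values. Its r within groups was -0.072 with Hmgcs1, -0.023 with Fdps, -0.040 with Idi1 and 0.153 with Lss, and it was highest with Insig1 (0.474) and Cyp51 (0.395). Hmgcs1 had r of 0.483 to 0.692 within groups with the members other than Fdft1 but only -0.232 to 0.317 with them across all libraries. The correlation of each member with sequencing depth (log2 reads on genes) lay between -0.236 and 0.297.

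**Figure D2:**
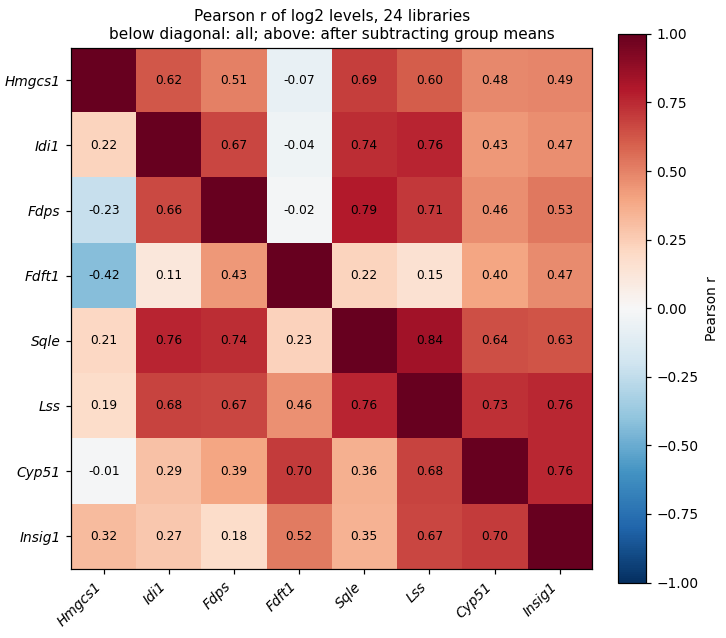
Pearson r between the log2 levels of each pair of genes over 24 libraries, below the diagonal as measured and above it after subtracting the mean of each group of 3 mice. Above the diagonal the palest cells belong to Fdft1, down to -0.072, and the darkest to Sqle with Lss, 0.843.

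The first set of comparisons asked whether maternal VDD altered these genes in offspring on the same diet. The 4 comparisons use separate mice. None of the 8 members was called in any of them (limma, Benjamini-Hochberg adjusted p under 0.01 over all genes tested and a fold change above 1.5 or below 0.66), and the smallest adjusted p of a member was 0.211. No gene of the whole table was called by limma either, that is 0% of 15438, 16013, 16046 and 16480 genes. By limma-voom, 0 members were called as well. The paper, which compared groups with DESeq2 under nearly the same rule, lists differentially expressed genes in each of these comparisons. The absence of calls here thus belongs to the limma fit and does not show that maternal VDD altered no gene. Why the counts differ was not tested. Of the 32 member values, 4 had an unadjusted p under 0.05.

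In CTRL LF vs. VDD LF males, 3 members were higher and 5 lower, with a median of -0.03 against 0.01 for all genes tested. Fdft1 was the only member with an unadjusted p under 0.05, against 6.79% of all genes. Its log2 fold change was 1.10 ± 0.31 (SE; limma adjusted p = 0.641), with no overlap between the groups. Fdps also did not overlap, with 0.41 ± 0.29 (limma adjusted p = 0.828), and 6.83% of all genes lay without overlap in this direction. Liver markers summed to 931.5 to 1070 in CTRL LF males and 471.9 to 770.1 in VDD LF males, without overlap. Muscle markers summed to 332.8 to 55090 and 223.6 to 840600 in the same groups. The part of either list was not tested. In bulk tissue, fewer cells of a type and less RNA per cell cannot be told apart, here and in every comparison that follows.

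In CTRL HF vs. VDD HF males all 8 members were higher in the VDD group, from 0.12 (Sqle) to 0.34 (Cyp51), with a median of 0.28 against 0.00 for all genes. No member had an unadjusted p under 0.05 (5.31% of all genes did). Cyp51 came nearest, at 0.34 ± 0.15 (limma adjusted p = 0.94), and both Cyp51 and Fdft1 did not overlap between the groups, as did 5.04% of all genes in this direction. No member was lower, and none of the 8 differences was resolved from the spread between mice. Brown adipocyte markers summed to 654.0 to 2448 in VDD HF males and 284.4 to 641.6 in CTRL HF males, without overlap. Muscle markers summed to 193000 and 298100 in 2 of the VDD HF males, against 1206 to 3008 in CTRL HF males. The part of either list was not tested.

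In CTRL LF vs. VDD LF females 6 members were higher and 2 lower (median 0.40, all genes 0.01). Hmgcs1 was lower, at -0.87 ± 0.36 (limma adjusted p = 0.404), and Sqle higher, at 0.45 ± 0.19 (limma adjusted p = 0.408), both without overlap, as were 9.74% of all genes in the lower and 8.48% in the higher direction. Unadjusted p was under 0.05 in 12% of all genes. Fdft1 was at 0.81 ± 0.37 (limma adjusted p = 0.425), with overlap. CTRL LF female 2124, with 5791 normalised reads of Hmgcs1, set much of that difference, which was -0.44 without it.

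In CTRL HF vs. VDD HF females Fdft1 was again the member with an unadjusted p under 0.05, at 1.16 ± 0.37 (limma adjusted p = 0.211) and without overlap, against 16.7% of all genes under that p and 11.1% without overlap in this direction. Without VDD HF female 2083, which had 3930 normalised reads, it was 0.75. Insig1 followed with 0.78 ± 0.33 (limma adjusted p = 0.301). After scaling to total reads the median of all genes in this comparison moved from 0.00 to -0.30 and that of the members from 0.21 to -0.08, with Fdft1 at 0.87. The brown adipocyte list summed to 2803 to 37040 in VDD HF females and to 200.3 to 793.2 in CTRL HF females, and the adrenal cortex list was high in 2 of the CTRL HF females and 1 of the VDD HF females. Mesothelium markers summed to 2217 to 5016 in VDD HF females and 6766 to 12900 in CTRL HF females, also without overlap. The part of these lists in the difference was not tested.

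The second set asked what the HF diet did in offspring of the same maternal diet. Here too no member was called, while 9 of 15583 genes (0.0578%) were called in CTRL males, 12 of 15965 (0.0752%) in VDD males, and 0% of 16563 and 15923 genes in CTRL and VDD females. With limma-voom, 0 members were called in each. For these comparisons too the paper lists more differentially expressed genes, from DESeq2, than the limma fit called. Of the 32 member values, 6 had an unadjusted p under 0.05. These comparisons use the same mice as the first set, so the LF mice of VDD mothers enter both.

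In CTRL LF vs. CTRL HF males 7 of 8 members were lower under HF (median -0.38, all genes -0.02), and Fdps alone was higher, by 0.35 ± 0.32. Insig1 was at -0.92 ± 0.21 (limma adjusted p = 0.0779) and Cyp51 at -0.77 ± 0.24 (limma adjusted p = 0.14). For both, every HF male was below every LF male, as for 11.7% of all genes, and 18.8% of all genes had an unadjusted p under 0.05. The adipocyte list summed to 573600 to 1006000 in CTRL LF males and 456000 to 657500 in CTRL HF males. The brown adipocyte list summed to 761.6 to 2556 and 284.4 to 641.6, without overlap. The liver list summed to 931.5 to 1070 and 334.3 to 922.5, also without overlap. The part of these lists in the differences was not tested.

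In VDD LF vs. VDD HF males Fdft1 was lower, at -1.19 ± 0.24 under HF (95% interval -1.76 to -0.62), with limma adjusted p = 0.0446, the only one of the 64 member values in the 8 comparisons under 0.05. At that threshold 5.35% of all genes passed, and 25.9% passed unadjusted p 0.05. Every HF male was below every LF male, as for 16.5% of all genes. Without VDD LF male 2310 it was -1.45 (limma adjusted p = 0.00655) and met the call rule, and with VDD LF male 2302 left out it was -1.04 with adjusted p = 0.163. Ctsb, which shares exonic bases with Fdft1, was 0.82 ± 0.26 higher under HF in the same mice (limma adjusted p = 0.111), the opposite direction. Cyp51 was at -1.18 ± 0.49 (limma adjusted p = 0.198) and did not overlap either. The 8 members were split evenly, 4 higher and 4 lower, with a median of 0.14.

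In CTRL LF vs. CTRL HF females Cyp51 was at -0.61 ± 0.20 (limma adjusted p = 0.102) without overlap, as were 18.2% of all genes in this direction, and Insig1 was at -0.76 ± 0.27 (limma adjusted p = 0.121). Without the 2 CTRL HF females with adrenal cortex markers, which left 1 HF mouse assumed to vary like the others, these values were -0.40 and -0.14. Several marker lists separated CTRL LF from CTRL HF females without overlap. Adipocyte markers summed to 531200 to 560300 under LF and 366700 to 463700 under HF, and brown adipocyte markers to 1124 to 9960 and 200.3 to 793.2. Macrophage markers summed to 1889 to 2793 under LF and 3526 to 4136 under HF, and mesothelium markers to 3651 to 4206 and 6766 to 12900. Their part in the differences was not tested. Here 7.40% of all genes passed adjusted p 0.05 and 28.8% passed unadjusted p 0.05. In VDD LF vs. VDD HF females Cyp51 was at -1.05 ± 0.41 (limma adjusted p = 0.837), and 0% of all genes passed adjusted p 0.05 and 5.05% passed unadjusted p 0.05. The medians of the members were -0.53 and -0.12, against 0.01 and -0.01 for all genes. Cyp51 had an unadjusted p under 0.05 in 3 of the 4 diet comparisons.

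**Figure D3:**
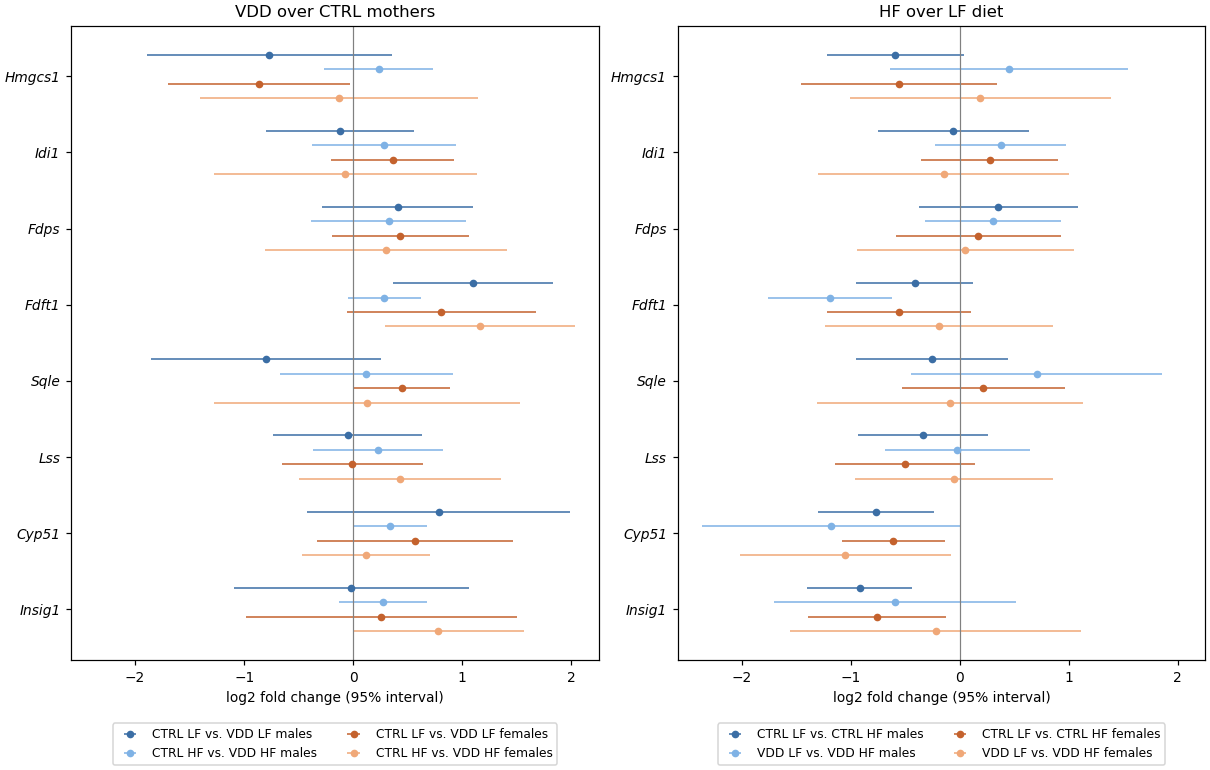
Log2 fold change (horizontal axes) with its 95% interval for each gene in the 4 comparisons of maternal diet (left) and the 4 of offspring diet (right), n = 3 mice a group. All 4 Fdft1 points lie right of 0 on the left, and all 4 Cyp51 and Insig1 points lie left of 0 on the right.

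Whether responses differed was tested by interactions over 12 libraries each: maternal by offspring diet in each sex, and sex by offspring diet in each maternal group. Of 32 member values none had an unadjusted p under 0.05, where 3.88% and 7.76% of all genes did for the diets in males and females, and 7.46% and 8.63% for sex in CTRL and VDD offspring. None was called, as with 0% of all genes. The values ranged from -0.80 to 1.03 log2 units with SE of 0.32 to 0.80, so that differences of these sizes were not resolved with 3 mice a group. The nearest was Fdft1 in males, where the response to HF was more negative in offspring of VDD mothers, with a difference of -0.79 ± 0.36 (limma adjusted p = 0.9998).

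Because each comparison rests on 6 mice, the 3 factors were also averaged over the 4 strata formed by the other factors, in a single limma fit of all 24 libraries, a step chosen after the comparisons had been seen. For HF over LF, 1736 of 18414 genes (9.43%) were called, and 1 of the 8 members. Cyp51 fell by 0.89 on the log2 scale (log2 fold change -0.89 ± 0.20, 95% interval -1.31 to -0.47, limma adjusted p = 0.00268), with a lower mean under HF in 4 of 4 strata. LF mice had 293.7 to 1503 normalised reads (median 533.5) and HF mice 223.2 to 598.0 (median 334.5). Its value was -0.94 (adjusted p = 0.00246) in the 19 libraries without the 5 rich in other tissues' markers, and -1.001 (adjusted p = 0.0148, no longer called) in the 18 without renal in their names. It was -1.08 (adjusted p = 0.00549) in the 15 libraries without the 9 with muscle markers, and was called there. That set holds 1 mouse in each VDD male group, assumed to vary like the others.

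Fdft1 was at -0.58 ± 0.18 with HF (limma adjusted p = 0.02) and Insig1 at -0.61 ± 0.23 (adjusted p = 0.0527), where 29.1% of all genes passed adjusted p 0.05. Without the 5 libraries rich in other tissues' markers, Fdft1 was at -0.53 and Insig1 at -0.50. Ctsb was higher by 0.41 ± 0.10 (limma adjusted p = 0.0056). The other 5 members lay between -0.22 (Lss) and 0.23 (Fdps) with intervals that include 0. Scaling to total reads moved the median of all genes from 0.01 to 0.18, with Cyp51 at -0.72 (adjusted p = 0.00596), Fdft1 at -0.41 (adjusted p = 0.071) and Hmgcs1 turned from -0.12 to 0.05. Adipocyte markers summed to 411700 to 1006000 in LF mice and 366700 to 657500 in HF mice, and their part was not tested.

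For VDD over CTRL mothers, 19 genes (0.103%) were called and no member. Fdft1 was higher by 0.84 ± 0.18 (95% interval 0.46 to 1.21, limma adjusted p = 0.0171), with a higher mean in 4 of 4 strata. Of all genes, 4.57% passed adjusted p 0.05. CTRL offspring had 639.7 to 2104 normalised reads (median 882.7) and VDD offspring 785.6 to 3930 (median 1797). It was 0.96 (adjusted p = 0.0256) without the 5 libraries and 0.74 (adjusted p = 0.13) without the 6 named renal, and 0.71 (adjusted p = 0.0248) after scaling to total reads, which moved the median of all genes to -0.13 and turned Idi1 from 0.11 to -0.01. Ctsb differed by -0.04 ± 0.10 (limma adjusted p = 0.862). Cyp51 (0.45 ± 0.20) and Fdps (0.37 ± 0.17) were past an unadjusted p of 0.05, with limma adjusted p of 0.186 and 0.213, and the other 5 were between -0.38 (Hmgcs1) and 0.32 (Insig1). Fdps was at 0.06 without the 5 libraries. Without the 9 libraries with muscle markers Fdft1 was at 0.75 (limma adjusted p = 0.254). Brown adipocyte markers were higher in VDD than in CTRL offspring without overlap in HF males (654.0 to 2448 against 284.4 to 641.6) and HF females (2803 to 37040 against 200.3 to 793.2). In LF mice the ranges overlapped, at 2044 to 6513 and 761.6 to 2556 in males and 1175 to 9357 and 1124 to 9960 in females. The part of these markers in the difference of Fdft1 was not tested.

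Between female and male mice, 1336 of all genes (7.26%) and 2 of the 8 members were called. Fdps was higher in females by 0.90 ± 0.17 (limma adjusted p = 0.0012) and Fdft1 by 0.75 ± 0.18 (adjusted p = 0.00618), each with a higher mean in 4 of 4 strata, where 19.8% of all genes passed adjusted p 0.05. Males had 26.45 to 60.99 normalised reads of Fdps and females 50.09 to 158.0. Fdps was at 0.90 (adjusted p = 0.00197) without the 5 libraries and 0.92 (adjusted p = 0.0266) without those named renal, and Fdft1 at 0.77 (adjusted p = 0.0239) and 0.93 (adjusted p = 0.015), so that Fdft1 was no longer called in either set and Fdps not in the second. In the 15 libraries without muscle markers above 10000, neither was called, with Fdps at 0.99 (limma adjusted p = 0.0533) and Fdft1 at 0.54 (adjusted p = 0.214). Leaving out single libraries ended the call of Fdft1 in 13 of 24 cases. Sqle (0.65 ± 0.24), Lss (0.42 ± 0.17) and Cyp51 (0.49 ± 0.20) were higher with adjusted p of 0.058 to 0.0922, and Hmgcs1 was at -0.65 ± 0.24 (limma adjusted p = 0.0658), or -0.88 (adjusted p = 0.0166) without the 5 libraries, where Cyp51 was at 0.27. Insig1 differed by -0.04 ± 0.23. Hmgcs1 thus pointed opposite to 6 of the other members between the sexes, although its difference did not pass the threshold. Macrophage markers were lower in females than in males without overlap in CTRL LF (1889 to 2793 against 3569 to 6442) and CTRL HF mice (3526 to 4136 against 5412 to 7374). The ranges overlapped in VDD LF (1366 to 3039 and 2100 to 4743) and VDD HF mice (1743 to 5905 and 3656 to 8845). Mesothelium markers were higher in CTRL LF females (3651 to 4206 against 1349 to 3221). They were also higher in CTRL HF females (6766 to 12900 against 1861 to 5122). In CTRL LF mice alone, adipocyte markers were lower in females (531200 to 560300 against 573600 to 1006000). Liver markers were lower there too (291.4 to 553.2 against 931.5 to 1070), and mammary epithelium higher (235.4 to 1251 against 38.39 to 112.6). Lymphocyte markers were lower there as well (134.7 to 254.2 against 266.5 to 1216). In VDD mice the ranges of these lists overlapped. Adrenal cortex markers were higher in CTRL LF females (799.3 to 2180 against 389.5 to 711.9). The same held in CTRL HF (1131 to 33200 against 489.8 to 751.7) and VDD LF mice (755.4 to 1573 against 398.5 to 590.0). In VDD HF mice they overlapped, but brown adipocyte markers were higher in females (2803 to 37040 against 654.0 to 2448). Ovary and uterus markers were higher in females without overlap in every stratum. The part of all these lists in the differences between the sexes, here and in the other pathway genes, was not tested.

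**Figure D4:**
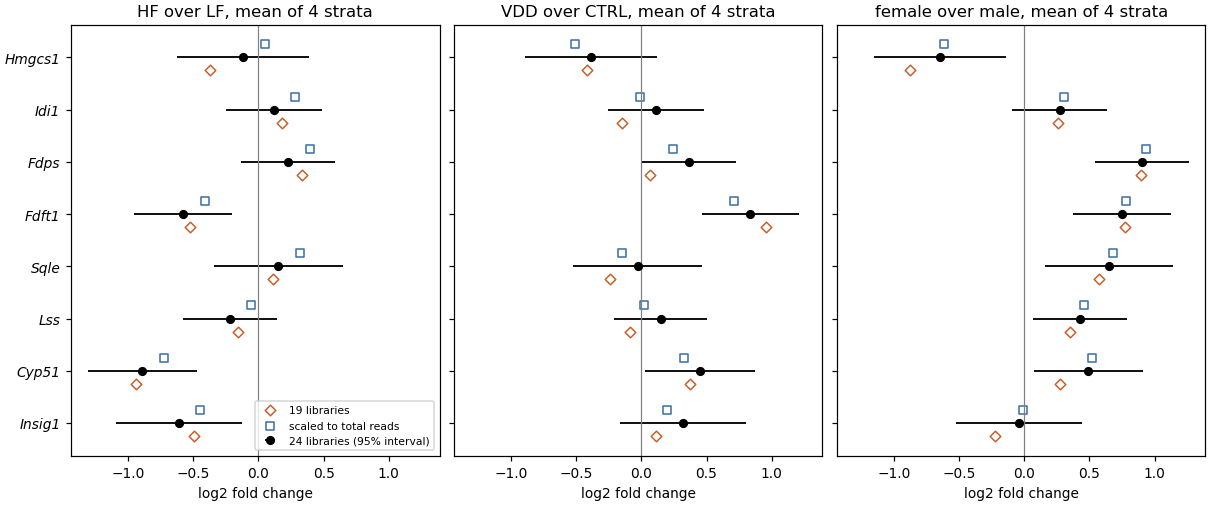
Mean log2 fold change over 4 strata for HF over LF, VDD over CTRL and female over male (horizontal axes), with 95% intervals from 24 libraries (black), and the values in 19 libraries (orange) and after scaling to total reads (blue). Cyp51 lies lowest for HF, Fdft1 highest for VDD, and Fdps highest for females.

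The rest of the pathway was followed with 37 genes, all of which were tested. With HF, 2 of the 37 were called higher and 3 lower, and 3 and 13 passed adjusted p 0.05 in those directions, where 9.43% of all genes were called and 29.1% passed adjusted p 0.05. Of 12 further sterol enzymes, Dhcr7, a late reductase of the pathway (0.77 ± 0.16, limma adjusted p = 0.00171), and Mvk, mevalonate kinase (0.70 ± 0.16, adjusted p = 0.00303), rose, while Ggps1, Pmvk, Tm7sf2 and Acat2 fell, by 0.25 to 0.54. Those that passed were thus split by direction. Of the 6 genes of SREBP processing, Insig2 fell (-0.49 ± 0.09, adjusted p = 0.000631), as did the protease gene Mbtps2, and Mbtps1 rose.

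A list of 10 genes covered efflux, esterification and lysosomal export, regulators included. Of these, Npc1, which moves cholesterol out of lysosomes, fell (-1.04 ± 0.16, limma adjusted p = 0.000115), as did Nr1h3, the gene of LXR alpha (-0.33 ± 0.09, adjusted p = 0.0115). Of the 7 fatty acid genes driven by SREBP-1, 5 passed adjusted p 0.05 and all 5 were lower, with Elovl6, an elongase (-1.98 ± 0.46, adjusted p = 0.00332), and Acaca, acetyl-CoA carboxylase (-1.03 ± 0.24, adjusted p = 0.00364), called and Fasn, Scd1 and Me1 between -1.33 and -0.70. The median of the 7 was -1.03, that of the 8 members -0.17 and that of all genes 0.01. Neither sterol-responsive gene passed. Of the 16 that passed, 9 still did so after scaling to total reads and 12 without the 5 libraries, and none changed sign.

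With VDD mothers, 0 of the 37 passed adjusted p 0.05 in limma (3 higher and 2 lower had an unadjusted p under 0.05, and 0 passed in limma-voom), with the smallest adjusted p at 0.0574 for Mbtps1. After scaling to total reads Mbtps1 was at -0.32 (limma adjusted p = 0.0427), and without the 5 libraries Npc1 was at 0.58 (adjusted p = 0.0283) and Sc5d, a sterol desaturase, at -0.39 (adjusted p = 0.0332). The fatty acid genes had a median of 0.44 and the members of 0.23. In females relative to males 4 were called higher and 1 lower, and 8 and 6 passed adjusted p 0.05, where 7.26% of all genes were called and 19.8% passed adjusted p 0.05. The sterol enzymes that passed, Tm7sf2 (0.95 ± 0.19, limma adjusted p = 0.00165), Dhcr7, Nsdhl and Msmo1, were all higher in females, as was the SREBP-2 gene Srebf2 (0.37 ± 0.09, adjusted p = 0.00492). The 5 genes that passed from the list of efflux, esterification and lysosomal export were all lower, though not all of them export cholesterol. They were led by the cholesterol exporter Abcg1 (-1.38 ± 0.17, limma adjusted p = 2.29e-05) and included Abca1, Nr1h3, Mylip and Lipa. Of the fatty acid genes, Elovl6 (2.13 ± 0.46), Acly (0.99 ± 0.31) and Acaca (0.95 ± 0.24) were higher. Of the 14, 12 passed after scaling to total reads and 11 without the 5 libraries, again with no change of sign.

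In single comparisons few of the 37 passed adjusted p 0.05. These were Npc1 in VDD LF vs. VDD HF males (-1.54 ± 0.14, limma adjusted p = 0.011) and Npc1 (-1.50 ± 0.26), Mylip (-0.80 ± 0.13), Insig2 (-0.73 ± 0.13) and Tm7sf2 (-1.23 ± 0.29) in CTRL LF vs. CTRL HF females, with adjusted p of 0.0268 to 0.0478. Among those with the 5 smallest p in the other comparisons, Abcg1 was at -1.01 ± 0.22 and Dhcr7 at 0.85 ± 0.23 in CTRL LF vs. CTRL HF males (limma adjusted p = 0.0659 and 0.102). In CTRL LF vs. VDD LF males Lipa (-0.61 ± 0.17), Npc1 (0.81 ± 0.25) and Abcg1 (-0.90 ± 0.28) came first, with limma adjusted p of 0.641 to 0.664. In CTRL LF vs. VDD LF females Msmo1 was at 0.63 ± 0.19 (limma adjusted p = 0.391), and for maternal diet in HF females Elovl6 came first, at 2.33 ± 0.62 (adjusted p = 0.174). For maternal diet in HF males Acaca came first, at -0.47 ± 0.18 (limma adjusted p = 0.94). For diet in VDD females the smallest p belonged to Insig2, at -0.54 ± 0.28 (limma adjusted p = 0.837).

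**Figure D5:**
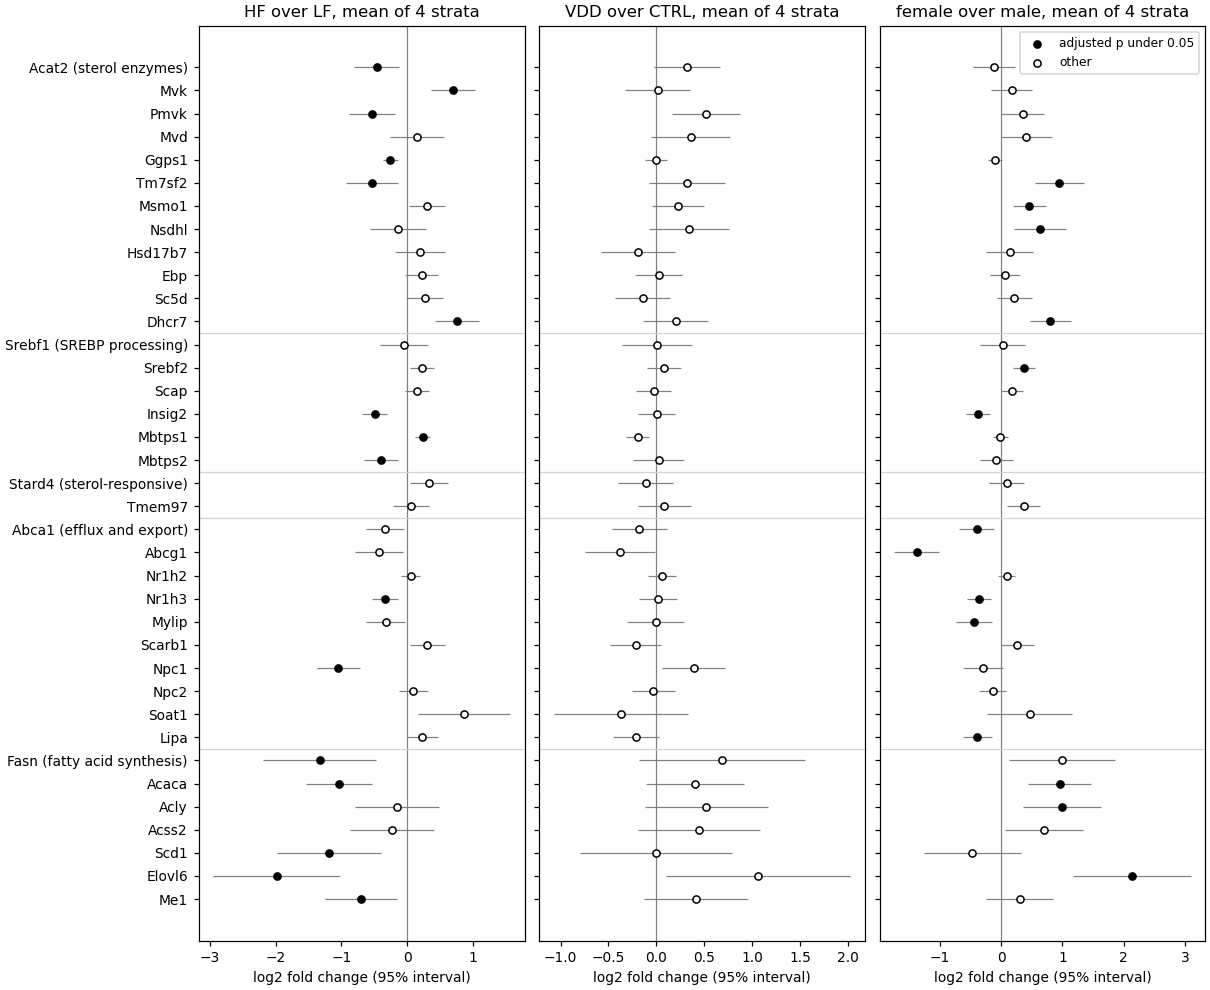
Mean log2 fold change over 4 strata with 95% intervals (horizontal axes, which differ in range) for 37 other genes of sterol and fatty acid metabolism in 24 libraries. Filled points passed adjusted p 0.05, 16 for HF over LF, 0 for VDD over CTRL and 14 for female over male.

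Over the 24 libraries, the log2 levels most like the mean of the 8 standardised members, among 18406 genes, were those of Acss2 (Pearson r = 0.898), Acly (0.892), Coq7 (0.885), Agpat2 (0.870) and Pigq (0.860). Those most like Insig1 were Msra (0.875), Apmap (0.870), Gpd1 (0.869), 2010003K11Rik (0.868) and Pex11a (0.865). These correlations describe libraries that share their groups and scaling.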

How the data were processed

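RNA was sequenced from 24 libraries, 3 for each of 8 groups, and groups were taken from the labels. Reads were trimmed (Sickle) and aligned by the authors with STAR 2.7.0d, which kept unique positions. Transcripts were assembled by the authors with Cufflinks 2.2.1, reads were counted with featureCounts 1.6.1, and the authors normalised them with DESeq2. Per the submitters' processing notes the build was mm10. Each of the authors' 8 deposited tables holds log2 values, log2(normalised reads + 1), of 6 libraries for 56899 entries. It also holds the authors' own fold changes and p-values, which were not used. Undoing the log2 and the size factor gave whole reads, within 0.02, for 100% of values.

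A count test had been planned, but the tables hold log2 values, so limma 3.58.1 (lmFit, eBayes with trend) in R 4.3.3 was fitted to each table, over genes with at least 10 normalised reads in at least 3 libraries. Interactions and means over strata used the recovered reads of the 24 libraries scaled together by the median of ratios. A gene was called where its fold change lay outside 0.66 to 1.5 and its adjusted p (Benjamini-Hochberg, over all genes tested) was under 0.01. The fits were tested on simulated data. Depth was 13346779 to 18484346 reads on genes, and the low counts of Idi1 and Fdps limit their precision.

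The members, the list of 37 pathway genes, the 11 marker lists and the motifs were chosen with earlier results of these data known. The rule for names took all members, each listed gene past adjusted p 0.05 and those among the 5 with the smallest p in a comparison, of which the text names the leading ones, and the 5 genes most correlated with the members and with Insig1. Gene positions, exon lengths and overlaps came from GENCODE vM21 (mm10), whereas the study's methods name an earlier GENCODE release. Alternatives were limma-voom, wider fits, scaling to total reads, a pseudocount of 10, no filter, no variance trend and leaving out each library. The means over strata, and leaving out 5, 6 or 9 libraries together (9 where muscle markers summed above 10000 normalised reads), were chosen after the data had been seen. Python 3.11.15 with pandas 2.3.3, numpy 2.4.6 and matplotlib 3.10.9 prepared tables and plots. An item of the planned pathway list is not reported here.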

Additional observations from a re-analysis of the deposited data

How the results depend on the processing

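Of the 22 member values with an unadjusted p under 0.05, none changed sign under any alternative. All 3 calls of members in the main analysis were lost under at least 1 alternative, and 5 were gained. Of the other 98 member values, 55 changed sign under at least 1 alternative, 7 of them after scaling to total reads and 22 without the 5 libraries rich in other tissues' markers. Beside the shifts given with the results, scaling to total reads moved the median of all genes to 0.19 for diet in CTRL males, 0.25 in VDD males, 0.22 in CTRL females, -0.13 for maternal diet in LF females, and -0.16 and -0.21 for the interactions in females and in VDD offspring. Counts of genes called over the whole table depended on the settings too, and the cause was not tested. For diet in CTRL males the 9 genes became 15 with a pseudocount of 10 and 39 with no filter. For diet in VDD males the 12 became 0 with limma-voom, 616 in a fit over the 12 libraries of the sex, 47 with a pseudocount of 10, 37 with no filter, and 264 without the libraries rich in markers, where 1 member, Fdft1, was called. For diet in CTRL females the 0 became 2, 13 and 3 with the pseudocount, no filter and those libraries left out. The 0 of the sex by diet interaction in VDD offspring became 3 in the fit over 24 libraries, 9 with the pseudocount, 3 with no filter, 4 with no variance trend and 1 without those libraries. For the means over strata, leaving out those libraries gave 0 genes for VDD (19 in full) and 757 with 1 member for sex, and leaving out the 6 named renal gave 796 with 0 members for HF, 0 for VDD and 367 with 0 members for sex. Leaving out the 9 with muscle markers gave 0 genes for VDD and 494 with 0 members for sex. For VDD the count was 50 with total reads and 5 with no trend. Leaving out single libraries gave 0 to 142 genes for maternal diet in HF males (142 without VDD HF male 2308), 0 to 10 for diet in CTRL males, 0 to 264 with 0 to 1 members in VDD males (264 without VDD LF male 2310), 0 to 1 in CTRL females, 0 to 1 and 0 to 2 for the interactions with sex in CTRL and VDD offspring, and, for the means, 1 to 3 members for HF, 0 to 195 genes with 0 to 1 members for VDD, and 1 to 3 members for sex. Under these omissions Cyp51 kept adjusted p from 0.000355 to 0.00643 for HF, Fdft1 from 0.00567 to 0.0421 for VDD, and Fdps from 0.0003 to 0.00296 for sex. No paired analysis was possible because the columns carry mouse numbers and none of the labels' replicate numbers. With 3 mice a group, a member had to differ by several SE before adjustment to pass, and Idi1 and Fdps rest on few reads.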
